A study of Mus musculus with 4 samples.

Results

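miR-103 and miR-107 are sister miRNAs that lie in introns of genes for pantothenate kinase, and both members, mmu-miR-103 and mmu-miR-107, were found on the array by their exact names among 567 mouse miRNAs. Their levels were measured on 4 one-colour Agilent mouse miRNA arrays of B104 cells, a clonal neuroblastoma line. In 2 samples, an siRNA duplex against RBM3, a cold-inducible RNA-binding protein, had been transfected at 20 nM and cells were taken 48 h later. The 2 control samples were mock treated and taken at the same time, so they received no other siRNA and an effect of siRNA transfection as such cannot be told apart from that of RBM3 loss. The array measures no mRNA, and RBM3 itself was therefore not measured here. A legend of the study speaks of repeated knockdown and control experiments behind the arrays, but the labels do not say that these 2 samples a group were separate cultures. If they were not, p-values measure only a technical spread.

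A miRNA guides Argonaute to transcripts that pair with its seed, the bases just behind its 5′ end. Its hairpin precursor is cut first by Drosha and then by Dicer, which frees the mature strand. miR-103 and miR-107 are known to repress Dicer mRNA, so that they act on the machinery that makes them, and in mice they are also known as regulators of insulin sensitivity. Their host genes Pank1, Pank2 and Pank3 encode the enzymes that start the synthesis of coenzyme A.

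The mature strands are shown because the pair differs at a single base. They were matched to RefSeq names of GRCm38.p6, with the seed (bases 2 to 8) in capitals.

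miR-103-3p: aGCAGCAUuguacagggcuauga

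miR-107-3p: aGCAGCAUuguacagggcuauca

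Of 23 bases 22 were identical, and the difference was G22C, with miR-103 first and positions counted from 1 at the 5′ end. Among 1679 mature mouse names in the RefSeq table, only these 2 carried the seed GCAGCAU. A shorter run that starts at their first base, AGCAGCA, stood within the first 8 bases of 12 names, among them the miR-15 and miR-16 family. Those relatives hold it as their seed, 1 base further in, as 3 of them show with the seed in capitals.

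miR-15b-5p: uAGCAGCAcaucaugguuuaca

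miR-16-5p: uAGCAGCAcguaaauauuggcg

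miR-322-5p: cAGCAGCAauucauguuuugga

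The 3 hairpins are shown because 2 loci give the same mature miR-103, so the array cannot tell which of them its signal came from. The mature strand is in capitals, and each hairpin is printed as RNA on its own strand. Mir103-1 lies inside Pank3 (chr11:35782396-35782481, plus strand), Mir103-2 inside Pank2 (chr2:131288052-131288137, plus strand) and Mir107 inside Pank1 (chr19:34820687-34820773, minus strand), all in GRCm38.p6.

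Mir103-1: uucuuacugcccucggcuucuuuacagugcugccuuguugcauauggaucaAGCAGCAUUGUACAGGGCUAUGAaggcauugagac

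Mir103-2: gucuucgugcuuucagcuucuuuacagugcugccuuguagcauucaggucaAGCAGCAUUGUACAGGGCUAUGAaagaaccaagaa

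Mir107: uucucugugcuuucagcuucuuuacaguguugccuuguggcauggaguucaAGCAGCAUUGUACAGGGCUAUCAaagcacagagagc

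In every hairpin the mature strand filled bases 52 to 74, on the 3′ side. The strand facing it differed by 1 or 2 of 23 bases between the 3 loci.

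Signal of the arrays as a whole fell after RBM3 siRNA. The scanner software's total signal, an intensity summed over the probes of a miRNA, had a median of 94.2 and 92.4 on the siRNA arrays and 375 and 422 on the control arrays over the 130 mouse miRNAs detected on all 4. Detected names numbered 148 and 164 after siRNA, against 178 and 191 in controls. The 6 positive control probes bright enough to be used were also dimmer on the siRNA arrays, by log2 differences of -1.56 to -0.51. With arrays centred on these probes the log2 change was -1.62 for miR-103 (limma adjusted p = 1.08e-05) and -1.45 for miR-107 (limma adjusted p = 1.23e-05), so both remained lower by a smaller amount than the plain signals given below. Under this centring 100 of the 130 miRNAs were called lower and 22 higher, with a median change of -1.15 for the others. A lower signal per array, less miRNA per cell and less RNA put on the array cannot be told apart in these data. All arrays were on 1 slide scanned on 1 day. The neural line was checked against 8 neural miRNAs, of which miR-9 and miR-128 were detected on all 4 arrays and 4, including miR-124, on none. The summed signal of that list was 141 and 138 after siRNA and 860 and 942 in controls. All 4 muscle miRNAs tested were detected on every array, with summed signals of 4441 and 4591 after siRNA and 10190 and 12740 in controls. The log2 change of the sum was -1.34 for the muscle list and -2.69 for the neural list. None of 6 blood miRNAs, nor liver miR-122, was detected on any array. The study's source for the line describes cells of the rat nervous system, whereas the labels give mouse, and names here are those of the mouse array.

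miR-103 was detected on all 4 arrays and was far dimmer after RBM3 siRNA. Its total signal was 132 and 131 on the siRNA arrays, and 767 and 891 on the control arrays. The groups did not overlap, which was so for 87.7% of the detected miRNAs in this direction, and the lower control value was 5.83 times the higher siRNA value. Group means were 131 ± 0.262 after siRNA and 829 ± 88.0 in controls (SD, n = 2 each). Taken from the means of the log2 signals, the signal was 6.29-fold lower, or 15.9% of control. The scanner's own error of a single value was 7.22% to 8.37%, larger than the gap between the siRNA arrays.

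miR-107 followed the same course. It gave 106 and 104.4 on the siRNA arrays, and 548 and 635 on the control arrays. Here too every siRNA value lay below every control value, by at least 5.15 times. The means were 105 ± 1.30 after siRNA and 591 ± 61.6 in controls (SD, n = 2 each). By the means of the log2 signals, miR-107 was 5.597-fold lower, or 17.9% of control. Both control means were spread more widely than the siRNA means, since control replicate 2 was brighter than control replicate 1 for both miRNAs by 1.16 times.

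**Figure D1:**
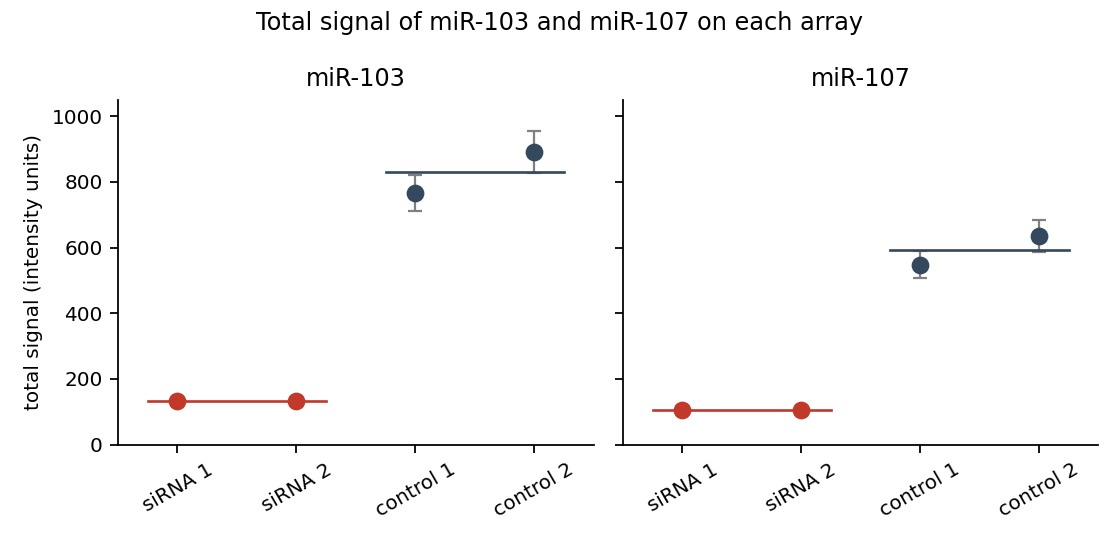
Total signal in intensity units of miR-103 (left) and miR-107 (right) on each array, RBM3 siRNA in red and control in blue-grey. Grey bars are the scanner software's error of each value and horizontal lines are group means, which were 131 and 829 for miR-103 and 105 and 591 for miR-107, siRNA before control.

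Each miRNA was read by 2 probes, printed as 10 spots each, so that 40 spots per array bear on the pair. All spots stood well above background on every array and none was saturated. The brighter miR-103 probe, A_54_P1341, averaged 117 and 114 after siRNA and 646 and 766 in controls, a log2 difference of -2.61. The other, A_54_P1342, averaged 80.8 and 84.7 after siRNA and 475 and 532 in controls, which gave -2.60. The miR-103 probes thus fell by nearly equal amounts.

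For miR-107, A_54_P1420 averaged 107.3 and 104.03 after siRNA and 534 and 624 in controls, a log2 difference of -2.45. A_54_P1421 was dimmer, with 52.9 and 53.3 after siRNA and 267 and 300.2 in controls, and gave -2.41. In no probe did a single siRNA spot reach a single control spot, and the highest siRNA spot was at most 0.266 times the lowest control spot of its probe. How many probes of other miRNAs had their spots apart in this way was not counted. By total signal, 87.7% of the detected miRNAs had both siRNA arrays below both control arrays, so such a gap is not particular to the pair. The ratio of the brighter to the dimmer probe moved little, being 1.45 and 1.34 after siRNA and 1.36 and 1.44 in controls for miR-103, and 2.03 and 1.95 after siRNA and 2.004 and 2.079 in controls for miR-107. Spots of 1 array are not replicates of the treatment and were not tested against each other.

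**Figure D2:**
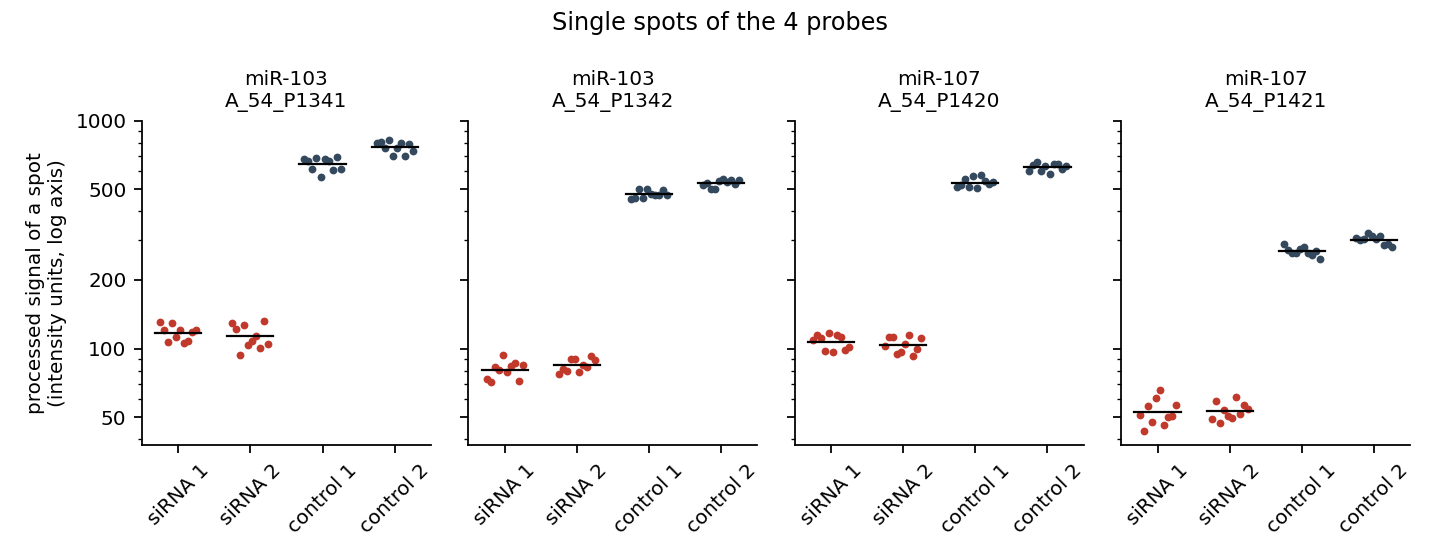
Processed signal of each of the 10 spots of the 4 probes, in intensity units on a log axis, with RBM3 siRNA arrays in red and control arrays in blue-grey and a black line at the mean of the spots. In each probe the siRNA spots lie below all control spots, and the means of A_54_P1341 are 117 and 114 after siRNA and 646 and 766 in controls. How many probes of other miRNAs show the same was not counted.

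In the fit across all 130 detected miRNAs, both miRNAs were lower after RBM3 siRNA. Values were log2 of the total signal plus 20, scale-normalized between arrays. The added 20 and the scaling each made the change smaller than that of the signal itself. With the added 20 and no scaling it was -2.48 for miR-103 and -2.28 for miR-107. miR-103 changed by -2.28 (SE 0.0958, 95% interval -2.47 to -2.10), with a limma adjusted p of 2.47e-48. miR-107 changed by -2.09 (SE 0.0958, 95% interval -2.28 to -1.90), with a limma adjusted p of 1.32e-44. Scale factors of the arrays were 0.984 to 1.01, and the other detected miRNAs kept a median change of -1.69. The lower brightness of the siRNA arrays was thus not taken out of these values. miR-103 and miR-107 stood among 111 miRNAs called lower, 85.4% of those tested, while 14 or 10.8% were called higher. A lower call was therefore the common outcome on these arrays, although between 1.67% and 91.8% of all calls were lower under other scalings, beside 88.8% here. The standard error is the same for every miRNA because limma pooled the variance over all of them, with 1 residual degree of freedom of its own to each, so that these p-values rest on a shared spread and not on that of miR-103 or miR-107. Scale normalization with small signals set to 0.5, another reading of the methods, turned both changes to positive values, 1.93 for miR-103 and 1.88 for miR-107, but there the median of the other miRNAs was 2.29.

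Without scaling, where the change is the plain log2 ratio of signals, miR-103 changed by -2.65 and miR-107 by -2.48, against a median of -2.19 over the 128 other miRNAs, whose quartiles were -2.44 and -1.39. Both were thus below the lower quartile of the others. miR-103 had the 15th and miR-107 the 31st largest fall, so 10.8% and 23.1% of the detected miRNAs fell by more. In the limma fit without scaling 86.2% were called lower, miR-103 and miR-107 among them. The largest fall of all was that of miR-532-3p at -3.89, and the largest rise that of miR-574-5p at 2.59.

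**Figure D3:**
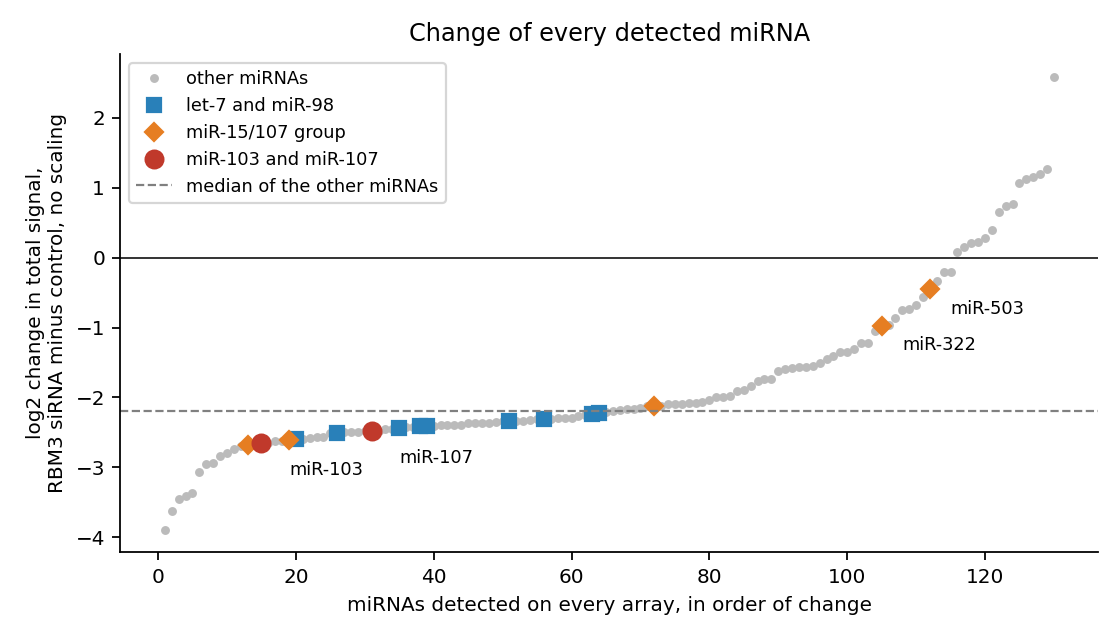
Log2 change in total signal with no scaling, RBM3 siRNA minus control, of each of the 130 miRNAs detected on every array, placed in order of the change. miR-103 at -2.65 and miR-107 at -2.48 (red) lie below the dashed line, the median of -2.19 of the other miRNAs, with miR-322 and miR-503 of the wider group (orange) far above it.

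Whether the pair fell by more than the other miRNAs was asked after each array had been centred on the median log2 signal of the 128 others, which takes out the brightness of an array. On that scale miR-103 stood 0.49 and 0.51 above the median on the siRNA arrays, and 1.07 and 1.13 above it on the control arrays. miR-107 stood 0.18 and 0.18 above it after siRNA, and 0.58 and 0.64 above it in controls. In both miRNAs the groups remained apart, which was so, in the lower direction, for 54.6% of the detected miRNAs.

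Relative to the others, miR-103 was lower by 1.52-fold, a log2 change of -0.60 (SE 0.0549, 95% interval -0.78 to -0.42, limma adjusted p = 0.00606). miR-107 was lower by 1.35-fold, a log2 change of -0.43 (SE 0.0563, 95% interval -0.61 to -0.25, limma adjusted p = 0.0108). Both calls belong to 58 lower ones, 44.6% of the miRNAs tested, beside 43 higher ones, 33.1%. The others themselves had a median change of -0.13 under this centring, because the median of the levels need not move as the median of the changes does. When arrays were instead centred on the median change of the others, a choice made after seeing the data, the changes were -0.47 for miR-103 (SE 0.0569, limma adjusted p = 0.00819) and -0.30 for miR-107 (SE 0.0568, limma adjusted p = 0.0211), and 36 or 27.7% of the miRNAs were called lower, with 34.6% called higher. The relative calls were lost with the floor of 0.5, at -0.17 for miR-103 (limma adjusted p = 0.122) and -0.22 for miR-107 (limma adjusted p = 0.0702), and that of miR-107 also with no detection filter (limma adjusted p = 0.0748). Setting arrays to their 75th percentile over detected miRNAs in place of scale normalization gave miR-107 a change of -0.29, which was not called (limma adjusted p = 0.173).

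**Figure D4:**
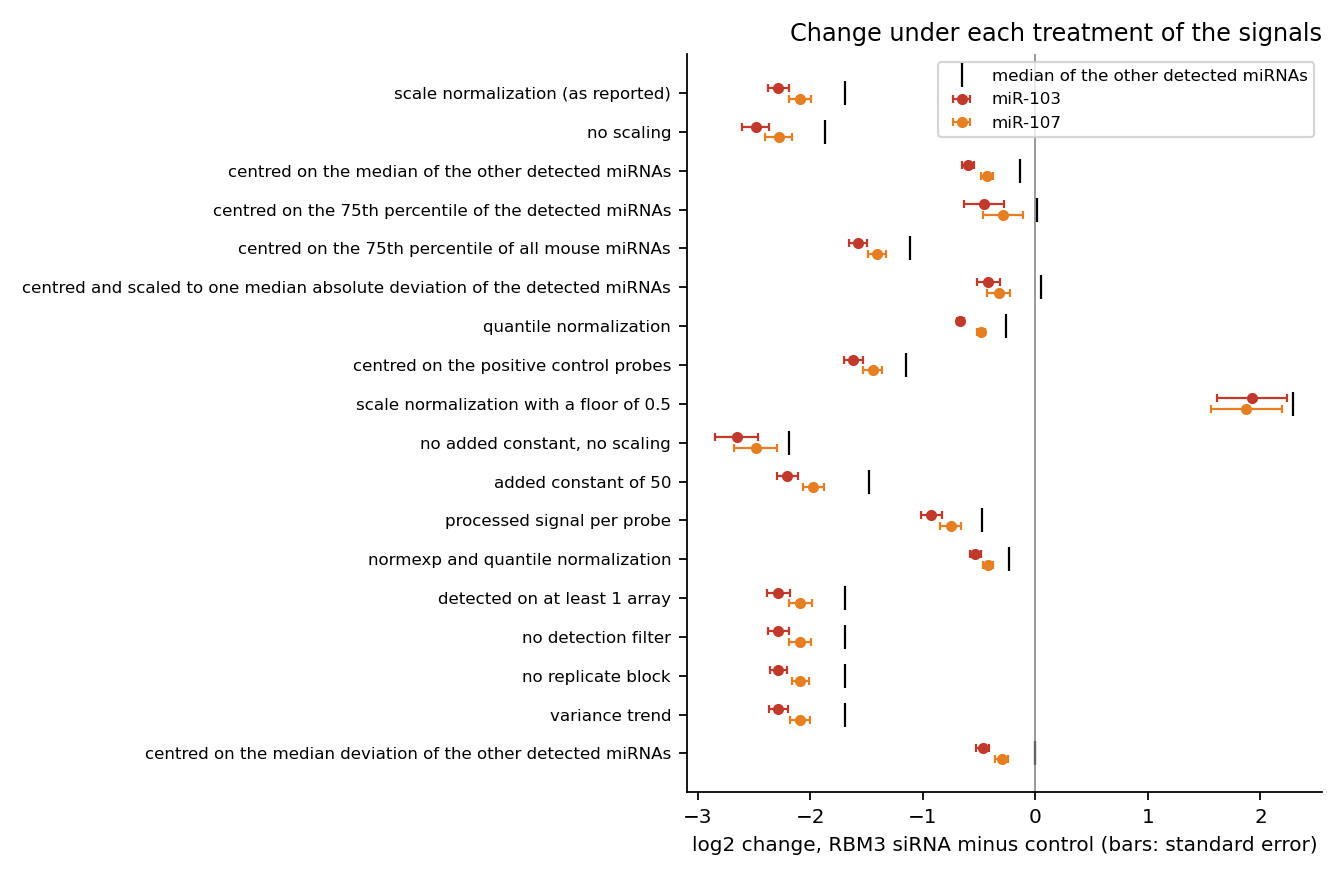
Log2 change of miR-103 (red) and miR-107 (orange), RBM3 siRNA minus control, under each treatment of the signals, with the standard error as bars and the median of the other detected miRNAs as a black tick. Both lie left of the tick throughout, as with -2.28 and -2.09 beside -1.69 under scale normalization, also where a floor of 0.5 put all of them above 0.

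The sister miRNAs were also set against each other within each array, where array brightness drops out. The log2 signal of miR-107 minus that of miR-103 was -0.31 and -0.33 on the siRNA arrays, and -0.48 and -0.49 on the control arrays. Since their probes differ, only the shift between groups can be read. It was 0.17, with 0.18 and 0.16 in the same-numbered pairs, and the change of miR-107 was thus the smaller in either pair. With scaling on signals floored at 0.5 the shift reversed to -0.049. The groups did not overlap, and the two-sided exact permutation test gave p = 0.333, the smallest that 2 samples against 2 allow. How often the groups were apart for other pairs of miRNAs was not counted. With each miRNA's log2 signals centred on their own mean, the pair differed by a root mean square of 0.0849 over the 4 arrays. The median of such distances to the other detected miRNAs was larger, 0.267 from miR-103 and 0.199 from miR-107. The SD of the difference between arrays of a group was 0.0149 after siRNA and 0.00296 in controls, well below the shift, while the scanner's error of such a difference on 1 array was 0.15 to 0.18. With 1 base between the strands, the share of either signal that came from the other miRNA is unknown, and it was not tested.

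In the order of the main changes the nearest miRNAs lay, by their place in it, within the standard error of 0.0958 of the pair, and differences from them were not tested. miR-103 stood between miR-130a at -2.30 and miR-10a at -2.28, with let-7i at -2.31 and let-7c at -2.22 beyond them. miR-107 stood between let-7g at -2.10 and miR-106b at -2.08, with miR-18a at -2.10 and miR-24 at -2.07 beyond them. This order depended on the scale, since without scaling or added constant miR-10a changed by -2.83 and miR-18a by -2.70, both more than miR-103 at -2.65 and miR-107 at -2.48.

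Likeness over the 4 arrays was taken as the root mean square difference between log2 signals centred on each miRNA's own mean. Nearest to miR-103 was miR-99b at 0.0149, with 48.9 and 47.7 after siRNA and 284 and 324 in controls. miR-130a (0.0186), miR-16 (0.0263), miR-15b (0.0272) and let-7i (0.0367) came next. miR-16 and miR-15b hold the AGCAGCA run, but miR-15a, miR-322 and miR-107 hold it too and were not among the 5 nearest. Whether the run bears on likeness was not tested. The median distance of all others was 0.267.

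Nearest to miR-107 was let-7c at 0.0176, with 881 and 871 after siRNA and 4590 and 5434 in controls. After it came miR-25 (0.0188), miR-30a (0.0217), let-7a (0.0331) and miR-29b (0.0353), and the median of all others was 0.199. The pair was not each other's closest match. Their distance of 0.0849 made miR-107 the 15th nearest to miR-103, and miR-103 the 33rd nearest to miR-107. A brightness that all miRNAs of an array share drops out of this distance, and what sets the likeness was not tested.

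The wider group to which the pair belongs, built on miR-15, miR-16 and their relatives and known for acting on cell cycle transcripts, was listed with 8 further miRNAs. Of these 7 were on the array and 5 were detected on all 4 arrays. All 5 were lower in the fit across miRNAs, beside 85.4% of all 130, with a median log2 change of -1.79 beside -1.70. Relative to the others they parted, with 2 lower, 2 higher and 1 not called, beside 44.6% lower and 33.1% higher over all 130.

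miR-15b gave 194 and 189 after siRNA and 1166 and 1310 in controls, a relative log2 change of -0.63 (limma adjusted p = 0.00538). miR-16 gave 389 and 382 after siRNA and 2204 and 2509 in controls, a relative change of -0.55 (limma adjusted p = 0.00646). Those values lay close to the ones of miR-103 and miR-107. miR-15a, with 165 and 165 after siRNA and 673 and 765 in controls, had a relative change of -0.07 and was not called (limma adjusted p = 0.342).

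miR-322 and miR-503, neighbours on chromosome X, kept more of their signal. miR-322 holds the AGCAGCA run, whereas miR-503 has the seed AGCAGCG and lacks it. miR-322 gave 226 and 238 after siRNA and 421 and 492 in controls, and was higher relative to the others by 1.08 (limma adjusted p = 0.00212). miR-503 gave 112 and 113 after siRNA and 144 and 165 in controls, and was higher relative to the others by 1.60 (limma adjusted p = 0.00186). Before centring both were lower, miR-322 by -0.72 and miR-503 by -0.22 on the scale-normalized log2 scale. miR-195, detected on 3 arrays, gave 15.6 and 17.3 after siRNA and 78.4 and 86.4 in controls. miR-497, detected on 2, gave 14.8 and 14.3 after siRNA and 85.3 and 98.3 in controls.

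**Figure D5:**
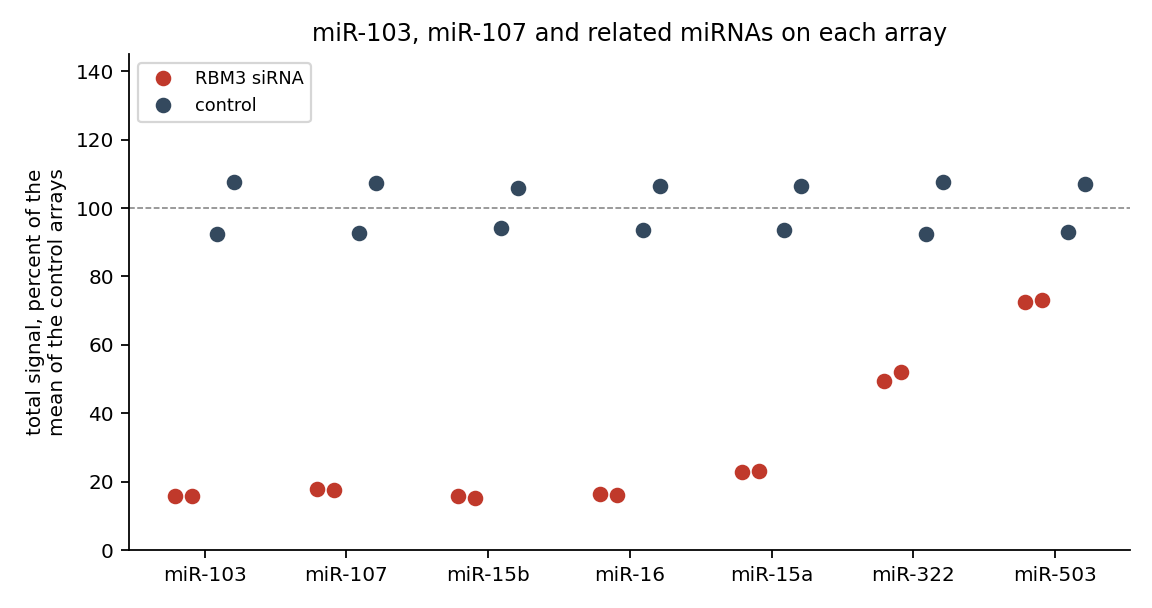
Total signal of miR-103, miR-107 and the 5 relatives detected on every array, as a percentage of the mean of the control arrays, with RBM3 siRNA arrays in red left of control arrays in blue-grey. By the means of the log2 signals miR-103 stood at 15.9% and miR-107 at 17.9% of control. Both lay near miR-15b and miR-16, whereas miR-322 and miR-503 lay well above them.

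As miR-103 and miR-107 come from introns, 33 other miRNAs known to lie in introns of coding genes were counted. Hairpins of 28 had an entry in the RefSeq table, and all 28 lay inside the gene listed as host. On the array 19 were detected on every array, of which 18 were lower and 1 was higher, with a median log2 change of -1.75, beside 85.4% lower, 10.8% higher and a median of -1.70 over all 130. Relative to the others 11 of 19 were lower and 3 were higher, beside 44.6% and 33.1% over all 130.

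miR-93, from an intron of Mcm7, had a larger change than either sister, -2.44, with 155 and 150.0 after siRNA and 1004 and 1120 in controls. miR-152, from an intron of Copz2, changed by -2.40, with 62.2 and 59.1 after siRNA and 429 and 502 in controls. The exception was miR-483, which lies in an intron of the growth factor gene Igf2 and changed by 1.09, with 171 and 200.1 after siRNA and 85.3 and 90.9 in controls. Members of the list thus spanned both directions, with miR-103 and miR-107 inside its range.

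The let-7 family, including miR-98, opposes proliferation and is also known to act on Dicer mRNA in human cells. All 9 of its miRNAs were detected on every array and all 9 were lower, with a median log2 change of -2.10, beside 85.4% lower and a median of -1.70 over all 130. Relative to the others 7 of 9 were lower, beside 44.6% over all 130, and let-7e and miR-98 were not called. let-7i had the largest change of the family and stood 2 places from miR-103 in the order of changes, while let-7g stood next to miR-107.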

How the data were processed

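The authors labelled RNA with Cy3 and extracted intensity values with Agilent Feature Extraction 10.1.1.1. The deposited files give background-subtracted intensity for each spot, and for each miRNA its summed signal and whether it was detected. The series' value table equalled the summed signal plus 20, unlogged. The array annotation names mm9, and no coordinates were taken from it. Members and lists were chosen with earlier results of these data known. Main values were log2(total signal + 20) of 567 mouse miRNAs, scale-normalized in R 4.3.3 by limma 3.58.1. lmFit and eBayes were run on the 130 that all arrays detected, blocked by replicate number, as the methods allow for paired samples, and p-values were adjusted by Benjamini-Hochberg at 0.05. Arrays of the same number did not move together (r of deviations -0.387, or -0.516 unscaled). A second fit used log2 total signal centred on the 128 others. Named were the pair, the 5 miRNAs nearest in pattern, the 2 on either side in order of change, and the lists. miR-93, miR-152, miR-483, miR-532-3p and miR-574-5p were named after their values were seen. Scripts were tested on simulated data. The number of arrays limits precision. There were 22 alternatives, on scaling, signal, filter, block and left-out arrays.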

Additional observations from a re-analysis of the deposited data

How the results depend on the processing

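Under 20 other settings, the scale-normalized change of miR-103 and miR-107 kept its direction and call in 19 and 18. Not all of these could differ in direction. The deposited values equal the main input and repeated its result, and changes of filter, block or variance trend can alter the call but not the size of the change. With a floor of 0.5 it reversed, to 1.93 for miR-103 and 1.88 for miR-107 (limma adjusted p = 1.34e-08 and 2.68e-08), the relative changes shrank to -0.17 and -0.22 and were not called (limma adjusted p = 0.122 and 0.0702), and the difference between the sisters reversed to -0.049. With the 75th percentile of the detected miRNAs, miR-107 changed by -0.29 and was not called. With no detection filter, the relative change of miR-107 was -0.43 and was not called (limma adjusted p = 0.0748). Its SE was 0.121 there, beside 0.0563 with the 130 detected miRNAs. Causes of these departures were not tested. Lower and higher counts were 111 and 14, and became 58 and 43 with centring on the median of the others, 20 and 44 with the 75th percentile of the detected miRNAs, 41 and 49 with one median absolute deviation, 60 and 32 with quantile normalization, 2 and 118 with the floor, 176 and 52 with no filter, and 36 and 45 with the centring added after seeing the data. Higher calls alone moved to 22 with the 75th percentile of all mouse miRNAs or the positive controls, 34 with the processed signal per probe, 33 with normexp and quantile normalization, and 38 with detection on at least 1 array. Lower calls were 88.8% of all calls, against 57.4% with centring on the others, 31.2% with the 75th percentile of the detected miRNAs, 45.6% with one median absolute deviation, 65.2% with quantile normalization, 70.4% with the processed signal per probe, 70.8% with normexp and quantile normalization, 1.67% with the floor and 44.4% with the added centring. The median of all 130 miRNAs was -1.70, against -0.15, -0.0029, 0.03, -0.27, -0.49, -0.24, 2.27 and -0.02 in these fits in the same order.

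Without the replicate block the changes stayed at -2.28 and -2.09, with 111 lower and 15 higher, and no call of miR-103 or miR-107 changed. Leaving out each array in turn, in fits with no block, gave -2.34 to -2.22 for miR-103, -2.15 to -2.03 for miR-107, -0.63 to -0.57 and -0.46 to -0.40 for their relative changes, 0.16 to 0.18 for the difference, 110 to 111 lower and 14 to 17 higher. Where that left 1 array in a group, it was assumed to vary like the others. Signals of the pair lay well above background on every array, and whether background limited the changes was not tested. The small number of arrays limits precision.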
